A study of Homo sapiens with 17 samples.

Results

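The clustered protocadherins are a family of cell-surface adhesion proteins whose genes stand in 3 neighbouring groups, alpha, beta and gamma, on human chromosome 5. Their members were taken as every row of both count tables whose symbol is that of an alpha (PCDHA, PCDHAC), beta (PCDHB) or gamma (PCDHGA, PCDHGB, PCDHGC) gene, which gave 54 of the 60662 genes: 16 alpha, 16 beta and 22 gamma genes. The alpha genes include PCDHA14, which the annotation lists as a transcribed pseudogene. All libraries come from CHP-134, a human neuroblastoma line with amplified MYCN. In culture, 2 libraries each were made from cells in the solvent DMSO and from cells in ATRA, all-trans retinoic acid, at 2 µM for 1, 3 or 6 days. In mice, 4 libraries came from RA tumors, of animals given 13-cis-retinoic acid at 25 mg/kg with 2 doses per day, and 5 from control tumors, which the labels call untreated and the study describes as vehicle-treated. All tumors grew under the skin of adult female athymic nude mice, which lack T cells but keep other leukocytes, from luciferase-labeled CHP-134 cells. The study describes widespread death of CHP-134 cells in ATRA, so that the cells at 6 days are those that remained.

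Clustered protocadherins carry extracellular cadherin repeats, and most isoforms bind the same isoform on a neighbouring cell. In neurons of the mouse, each cell picks a small set of these isoforms, and the resulting barcode lets its branches tell self from non-self. An alpha or gamma transcript joins 1 large variable exon, which has its own promoter, to short constant exons that the whole cluster shares, whereas a beta gene is a single exon. Promoter choice depends on the DNA-binding factor CTCF and on cohesin, which loops a distant enhancer to a promoter. Most, but not all, of the promoters share a conserved sequence element with the letters CGCT at its core. The last 2 alpha genes (PCDHAC1, PCDHAC2) and the last 3 gamma genes (PCDHGC3, PCDHGC4, PCDHGC5) are known as C-type members and are, in mouse neurons, less subject to this choice.

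On hg38, the alpha genes span chr5:140786136-141012347, the beta genes chr5:141051374-141249365 and the gamma genes chr5:141330514-141512977, all on the plus strand. Gene annotation (GENCODE 44) shows what the counts can and cannot separate. A median of 46.7% of an alpha gene's exonic bases and 43.8% of a gamma gene's also belonged to exons of other members, against 0% for every beta gene. The counting program RSEM divides reads from such shared exons between the members by estimate. In the cells 85.4% of member values were not whole numbers, against 7.56% of all values, and in the tumors 71.0%, against 14.7%. By cluster, 83.6% of alpha, 85.9% of beta and 86.4% of gamma values in the cells were not whole, so reads of the beta genes were divided by estimate as well. Values of single members are uncertain in size for this reason, and the sum over a cluster does not depend on how reads were divided within it. The strand setting used in counting is not given in the sources used here. Exons on the opposite strand covered 48.6% of the exonic bases of PCDHA1, 43.9% of PCDHB2 (under PCDHB1-AS1) and 21.2% of PCDHB16. Whether the reads of these genes were kept apart from those of the opposite gene is therefore not known.

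Promoter sequence was available from RefSeq (GRCh38.p14) for 47 of the 54 members, as 52 windows running from 250 bases before the annotated start to 50 bases after it. CGCT was found on the gene's own strand in 51 of the 52 windows (98.1%), against 54.3% of all 35116 promoter windows. Counting either strand, the shares were 98.1% and 70.0%. The window without these letters was that of PCDHA9. The letters alone do not show that a window holds the whole conserved element. A match 40 to 90 bases before the start, a range chosen after the positions were seen, was present in 73.1% of member windows and 16.2% of all windows. The letters around the core differed by cluster. GATGTCGCT was in 9 of 13 alpha windows and in no beta or gamma window, TGGCGCT in 13 of 14 beta and 5 of 25 gamma windows, and GCGCCGCT in 13 of 25 gamma windows only. Of all promoter windows, 0.105%, 4.08% and 3.17% held these letters, in the same order and on either strand, and each run contains CGCT. These longer runs were not among the letters planned in advance, so their comparison with all windows is descriptive only. The CTCF letters CCCTC or GAGGG were in 30.8% of member windows, in no beta window and in 71.2% of all windows. These letters alone do not show whether CTCF binds a window. They are rich in guanine and cytosine, of which member windows held a median of 40.7%. Guanine and cytosine made up a median of 37.3% of the alpha, 40.8% of the beta and 47.3% of the gamma windows, against 58.7% over all promoters, but 66.0% in PCDHAC1 and 63.0% in PCDHAC2.

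The 100 bases before the annotated start are shown, 5′ to 3′ on the plus strand with CGCT in capitals, for the members on which the results turn. They are a member high in tumors and near silent in cells (PCDHA2, chr5:140794752-140794851), the 2 highest alpha members (PCDHA4, chr5:140806968-140807067, and PCDHA10, chr5:140855797-140855896), both C-type alpha members (PCDHAC1, chr5:140926199-140926298, and PCDHAC2, chr5:140966376-140966475), the beta member with the smallest change at 6 days (PCDHB2, chr5:141094515-141094614) and those with the largest (PCDHB9, chr5:141187061-141187160, PCDHB12, chr5:141208619-141208718, and PCDHB13, chr5:141213819-141213918), PCDHB14 (chr5:141223243-141223342), which ranks high in every group, the gamma member nearest to the beta cluster (PCDHGA1, chr5:141330414-141330513), a gamma member that was low in tumors (PCDHGA9, chr5:141402678-141402777) and a C-type gamma member (PCDHGC3, chr5:141475866-141475965).
PCDHA2: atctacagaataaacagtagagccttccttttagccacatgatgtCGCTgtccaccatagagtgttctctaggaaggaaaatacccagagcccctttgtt
PCDHA4: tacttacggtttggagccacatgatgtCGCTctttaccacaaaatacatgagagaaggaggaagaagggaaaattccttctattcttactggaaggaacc
PCDHA10: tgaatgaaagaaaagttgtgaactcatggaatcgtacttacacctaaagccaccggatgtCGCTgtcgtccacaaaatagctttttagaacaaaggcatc
PCDHAC1: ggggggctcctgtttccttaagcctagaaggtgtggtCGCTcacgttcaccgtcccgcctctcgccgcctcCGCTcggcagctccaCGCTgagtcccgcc
PCDHAC2: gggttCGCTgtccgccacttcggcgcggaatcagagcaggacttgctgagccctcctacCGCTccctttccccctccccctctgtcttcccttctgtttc
PCDHB2: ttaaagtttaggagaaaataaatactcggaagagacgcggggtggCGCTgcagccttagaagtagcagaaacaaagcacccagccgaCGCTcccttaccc
PCDHB9: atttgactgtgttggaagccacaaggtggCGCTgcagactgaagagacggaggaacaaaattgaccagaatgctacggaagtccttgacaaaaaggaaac
PCDHB12: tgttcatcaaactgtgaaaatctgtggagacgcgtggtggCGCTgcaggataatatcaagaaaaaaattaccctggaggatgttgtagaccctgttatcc
PCDHB13: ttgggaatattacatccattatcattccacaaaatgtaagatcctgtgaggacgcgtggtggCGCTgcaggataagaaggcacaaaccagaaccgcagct
PCDHB14: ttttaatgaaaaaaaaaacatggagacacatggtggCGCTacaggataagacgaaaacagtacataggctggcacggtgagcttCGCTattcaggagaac
PCDHGA1: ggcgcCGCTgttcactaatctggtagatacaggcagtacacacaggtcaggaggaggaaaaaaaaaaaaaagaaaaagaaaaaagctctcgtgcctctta
PCDHGA9: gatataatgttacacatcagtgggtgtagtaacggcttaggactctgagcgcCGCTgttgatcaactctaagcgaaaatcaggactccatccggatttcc
PCDHGC3: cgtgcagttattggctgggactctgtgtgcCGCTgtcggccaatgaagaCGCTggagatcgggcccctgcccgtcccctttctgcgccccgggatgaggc

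**Figure D1:**
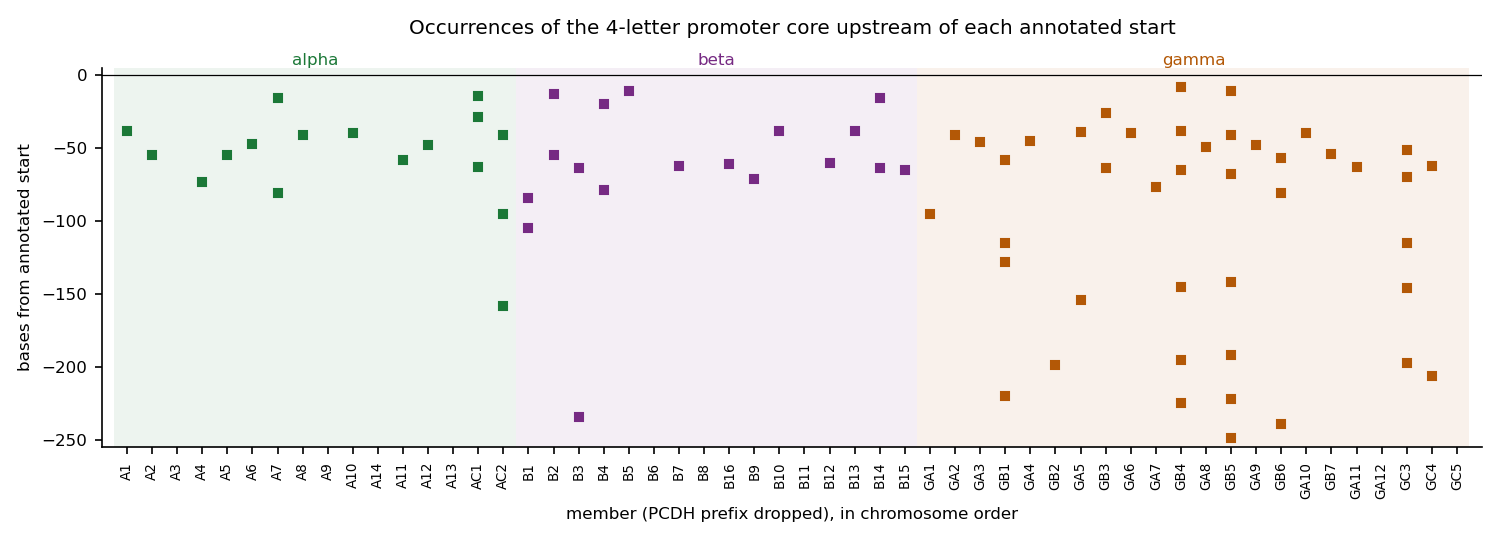
Each square is 1 occurrence of the promoter core letters, drawn at its distance in bases before the annotated start (vertical axis) for each member in chromosome order (horizontal axis). Green is the alpha, purple the beta and brown the gamma cluster, members without a square have no window or no match before the start, and members with 2 windows show the matches of both. Of the windows, 73.1% have a match 40 to 90 bases before the start.

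Depth was 31607051 to 39422897 counts per library in cells and 17266558 to 29078889 in tumors. Levels are CPM, each library's counts scaled by TMM to 1e+06 per library over all 17 libraries, given as mean ± SD (n = 2 for each group of cells, 4 RA tumors and 5 control tumors), and log2 fold changes carry their SE. A gene was called changed with an FDR under 0.05 in edgeR's quasi-likelihood test, adjusted over all genes tested, and a difference over 2-fold. The test covered 53 members in cells and 50 in tumors. PCDHB1, with at most 6 counts in any library of cells, was tested nowhere, and PCDHA1, PCDHB6 and PCDHGC4 were too low to be tested in tumors. Of 8 sympathetic neuroblastoma markers listed, 3 were called higher and 2 lower at 6 days of ATRA, against 18.8% and 12.3% of all genes. In control tumors against DMSO cells 2 were higher and 4 lower, against 31.5% and 11.4% of all genes. The neuroblastoma genes HAND2 and MYCN were on in every group. MYCN had a log2 fold change of −1.03 at 6 days, and HAND2 one of −1.08 in control tumors against DMSO cells. TH and DBH, which encode catecholamine enzymes of sympathetic cells, were nearly absent in the DMSO libraries, with 0.246 and 0.281 CPM of TH and 0 and 0.344 CPM of DBH. Both were higher at 6 days, with 2.97 and 3.59 CPM of TH and 3.70 and 3.69 CPM of DBH. The study calls the 2 libraries of each group of cells independent replicates, and the labels do not say whether they are separate cultures, so that p-values for cells may reflect technical spread only. RA tumor 4 had the lowest beta total of the RA tumors, and results that change without it are given both ways. Since these are bulk samples, fewer cells that express a gene and less of its RNA per cell cannot be told apart.

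The beta cluster had the largest fold change in ATRA. Its summed level was 45.2 and 45.4 CPM in the DMSO libraries, 55.33 and 55.96 after day 1, 81.9 and 82.7 after day 3 and 188 and 190 after day 6. No group overlapped another, and the level at 6 days was 4.18-fold that of DMSO cells. The alpha total was 140 and 140 CPM with DMSO, 140 and 143 after day 1, 172 and 169 after day 3 and 272 and 280 after day 6, a 1.97-fold difference at the end. The 1-day and DMSO libraries of the alpha total overlapped. The gamma total was 53.4 and 54.4 CPM with DMSO, 59.2 and 58.2 after day 1, 61.9 and 64.3 after day 3 and 83.4 and 83.3 after day 6, 1.55-fold higher than DMSO. Totals are given without a test.

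**Figure D2:**
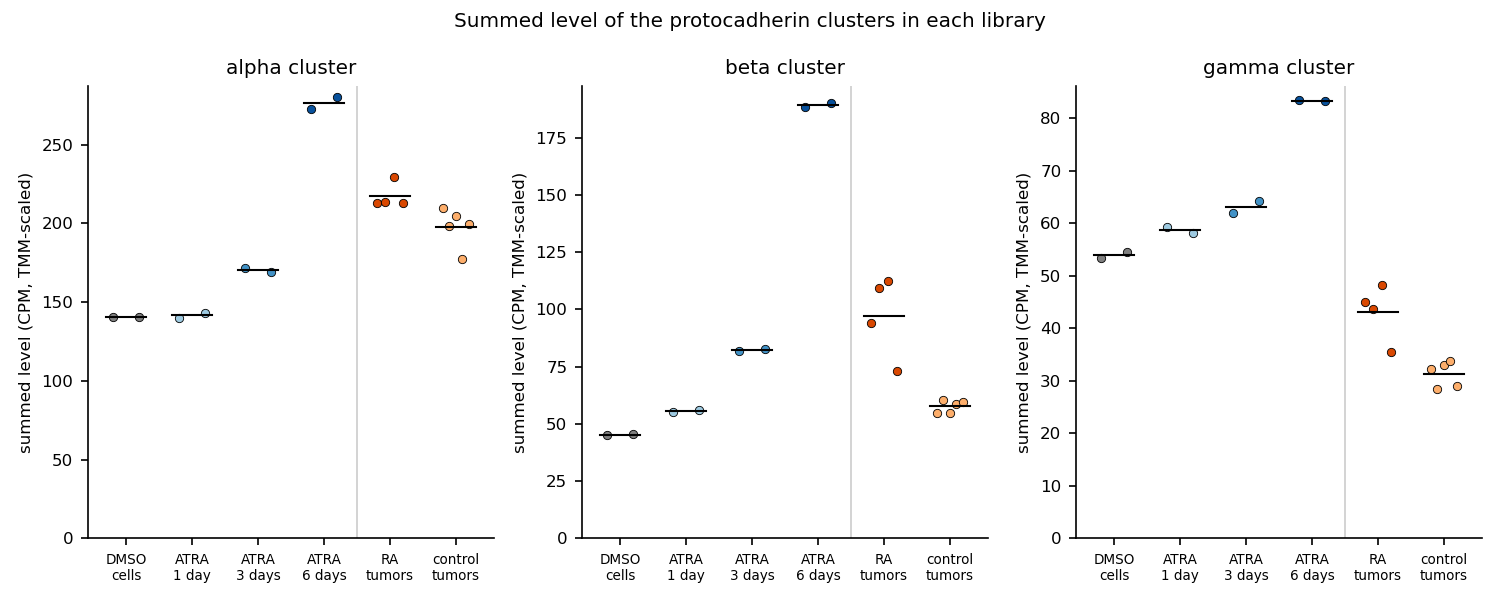
Summed level of each cluster (vertical axis, TMM-scaled CPM, from 0) in each library, 1 point per library and a line at the group mean, with cells from DMSO to 6 days of ATRA at left and RA tumors left of control tumors at right. The beta total of every RA tumor (73.1 to 113 CPM) lies above that of every control tumor (54.8 to 60.4 CPM).

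At 1 day of ATRA no member was called (0 of 53 in either direction), where 1.95% of all genes were called higher and 0.791% lower. DESeq2 also called none, and 13 members had an unadjusted p under 0.05. Counts by unadjusted p, here and below, were not made over all genes, so that no share stands beside them. Without regard to fold, 8 members passed the FDR threshold in edgeR's test, all of them higher, against 13.1% of all genes that passed and were higher. These 8 were 5 beta and 3 gamma members. PCDHB11, the beta gene with the highest level, had the lowest FDR at 1 day (log2 fold change 0.36 ± 0.07, FDR 0.000127), followed by PCDHB12 (0.53 ± 0.11, FDR 0.000177).

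At 3 days 7 members rose and none fell, against 5.45% of all genes called higher and 2.43% called lower. PCDHB12 (log2 fold change 1.18 ± 0.10), PCDHB7 (1.11 ± 0.21), PCDHB15 (1.04 ± 0.16) and PCDHB13 (1.02 ± 0.10) rose among the beta genes. PCDHA1 (1.28 ± 0.46) and PCDHA14 (1.21 ± 0.24) rose among the alpha genes and PCDHGB3 (1.02 ± 0.16) among the gamma genes. PCDHA1 had only 18 to 19 counts per library at 3 days and 8 to 9 with DMSO. The median log2 fold change was 0.43 over the alpha, 0.85 over the beta and 0.15 over the gamma genes, against 0.01 over all genes. Without DMSO library 1 the count was 4. DESeq2 called 4 and edgeR's model of all 17 libraries 2, and the call of PCDHA1 was lost in both (adjusted p 0.137 and 0.301).

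At 6 days 26 of 53 members rose and none fell, against 18.8% of all genes called higher and 12.3% called lower. The beta cluster supplied 14 of its 15 tested genes, the alpha cluster 9 of 16 and the gamma cluster 3 of 22. Median log2 fold changes were 1.95, 1.08 and 0.60 in these clusters and 0.04 over all genes. DESeq2 did not call PCDHA2, PCDHA3, PCDHB6 or PCDHGB3 at 6 days. With no filter on low counts, PCDHA7, PCDHB6 and PCDHGB3 were not called. In the same cells fibroblast markers summed to 78.7 to 81.5 CPM, against 147 to 153 CPM, endothelium markers to 145 to 157 CPM, almost all CLDN5, against 1.67 to 2.12 CPM, and Schwann cell markers to 13.3 to 14.7 CPM, against 7.87 to 8.32 CPM, and their part in the protocadherin differences was not tested. Without regard to fold, all 15 beta genes, 15 of 16 alpha genes and 15 of 22 gamma genes were higher with an FDR under 0.05, against 38.7% of all genes.

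**Figure D3:**
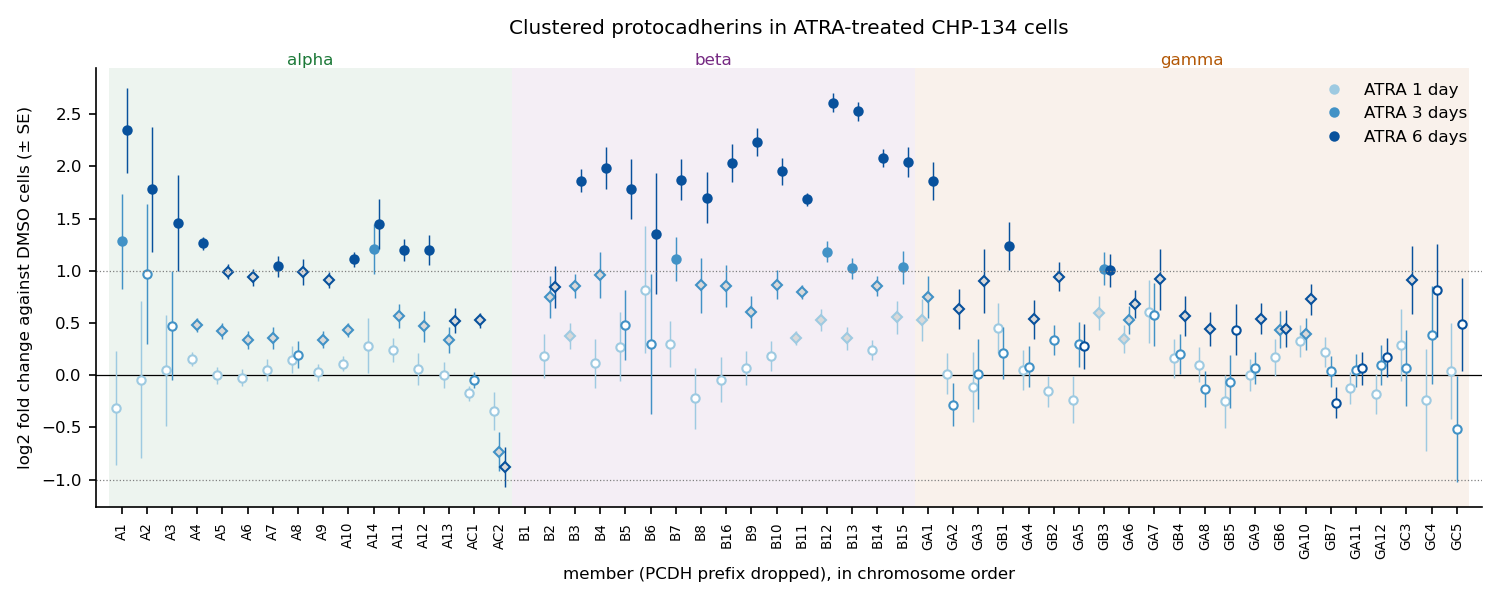
Log2 fold change against DMSO cells (vertical axis, bars are ± SE) of each tested member in chromosome order (horizontal axis), after 1, 3 and 6 days of ATRA from light to dark blue. Filled circles were called (FDR under 0.05 and over 2-fold, dotted lines), grey diamonds had an FDR under 0.05 without passing 2-fold, and open circles had neither. Beta genes from PCDHB3 to PCDHB15 and the adjoining PCDHGA1 stand above most others at 6 days, and PCDHAC2 and PCDHGB7 lie below 0.

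The largest rises in the beta cluster were those of PCDHB12, PCDHB13 and PCDHB9, which lie toward its far end. PCDHB12 was at 4.36 and 4.47 CPM with DMSO, 6.78 and 5.84 after day 1, 9.30 and 10.3 after day 3 and 27.1 and 28.1 after day 6. It was 6.11-fold higher at 6 days than with DMSO (log2 fold change 2.61 ± 0.09, FDR 8.11e-25). PCDHB13 was at 3.89 and 4.44 CPM with DMSO, 5.22 and 5.26 after day 1, 7.96 and 8.55 after day 3 and 24.5 and 24.5 after day 6 (5.76-fold at 6 days, 2.53 ± 0.09, FDR 4.35e-24). Neither gene's groups overlapped. PCDHB9 was at 2.28 and 2.47 CPM with DMSO, 2.50 and 2.40 after day 1, 3.88 and 3.17 after day 3 and 11.96 and 10.81 after day 6 (4.70-fold, 2.23 ± 0.14, FDR 3.38e-17). Its 1-day libraries overlapped those with DMSO, and most of its rise came after day 3. All 3 promoters carry the TGGCGCT core shown above, and so does that of PCDHB2, which had the smallest difference. PCDHB2 was at 3.13 and 2.71 CPM at 6 days, against 1.65 and 1.53 CPM with DMSO (0.84 ± 0.20, FDR 0.000276), which did not pass 2-fold. The other 11 called beta genes had log2 fold changes between 1.36 (PCDHB6, called with at most 13 counts per library) and 2.08 (PCDHB14). The call of PCDHB6 was lost under 3 of the 4 single-library omissions. It was also lost under DESeq2 (adjusted p 0.178) and in edgeR's test with no filter (FDR 0.0644) or with all 17 libraries in the model (FDR 0.136).

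PCDHB11 held the largest part of the beta counts in every group, with 20.3% at 6 days, against 25.8% with DMSO. PCDHB12 held 14.6% at 6 days, against 9.75% with DMSO, and PCDHB13 12.9%, against 9.20%. Levels of different genes were compared per kilobase of the longest annotated transcript, by which PCDHB11 stood at 9.26 CPM per kb at 6 days. PCDHA4 followed with 7.58 and PCDHB12 with 7.16 CPM per kb. With DMSO the order was PCDHA4 (3.09 CPM per kb), PCDHB11 (2.82), PCDHAC1 (2.701) and PCDHA5 (2.51), and PCDHB12 stood at 1.15 CPM per kb. The length used was 10.6 kb for PCDHA4 and 12.4 kb for PCDHA10, against 5.38 kb for PCDHA5 and 4.15 kb for PCDHB11. Which transcripts were expressed was not tested, so the places of PCDHA4 and PCDHA10 in these orders depend on that length.

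The median rise was smaller among the alpha genes, whose log2 fold changes at 6 days ran from −0.88 to 2.35, against 0.84 to 2.61 for the beta genes. PCDHA4, the alpha gene with the highest level, was at 31.7 and 33.5 CPM with DMSO, 33.1 and 38.6 after day 1, 46.0 and 43.0 after day 3 and 77.6 and 82.5 after day 6 (log2 fold change at 6 days 1.26 ± 0.06, FDR 1.05e-10). PCDHA10, the next highest, reached 40.6 and 43.4 CPM at 6 days, against 19.5 and 18.6 CPM with DMSO (1.11 ± 0.07, FDR 5.71e-14). PCDHA11 (1.20 ± 0.11), PCDHA12 (1.20 ± 0.14) and PCDHA7 (1.04 ± 0.10) were also called, though PCDHA7 fell just under 2-fold with no filter on low counts. PCDHA5 (0.99), PCDHA8 (0.99), PCDHA6 (0.94) and PCDHA9 (0.91) lay just under 2-fold, all with an FDR under 0.05. PCDHA1, PCDHA2 and PCDHA3 at the start of the cluster were nearly silent in cells. They had 34 to 46, 13 to 16 and 18 to 25 counts per library at 6 days, against 8 to 9, 3 to 6 and 7 to 10 with DMSO. All 3 were called at 6 days (log2 fold changes 2.35 ± 0.41, 1.78 ± 0.60 and 1.46 ± 0.46), but DESeq2 did not call PCDHA2 or PCDHA3. The pseudogene PCDHA14 rose as well (1.45 ± 0.24), but was not called in edgeR's model of all 17 libraries (FDR 0.114).

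Toward the end of the alpha cluster the response was smaller and then of the other sign. PCDHA13 had a log2 fold change of 0.52 ± 0.12 at 6 days. PCDHAC1, a C-type member, was at 22.8 and 24.2 CPM, against 16.5 and 15.4 CPM with DMSO (0.53 ± 0.07, FDR 4.14e-08). PCDHAC2, which in mice is required for the spacing of serotonergic axons, was at 11.96 and 11.79 CPM with DMSO, 10.9 and 7.61 after day 1, 7.97 and 6.01 after day 3 and 6.91 and 6.29 after day 6. It was the 1 member with an FDR under 0.05 and a lower level (−0.73 ± 0.19, FDR 0.0162 at 3 days and −0.88 ± 0.19, FDR 0.00377 at 6 days, without passing 2-fold). Its part of the alpha counts was 8.46% with DMSO, 6.56% at 1 day, 4.10% at 3 days and 2.39% at 6 days. PCDHA4, in contrast, held 23.2% with DMSO, 25.3% at 1 day, 26.1% at 3 days and 29.0% at 6 days. These parts rest on the estimated division of shared reads.

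In the gamma cluster the median rise at 6 days was smaller than in the other clusters, and its first gene rose most. PCDHGA1, which starts the cluster and lies closest to the beta genes, was at 1.31 and 1.59 CPM with DMSO, 1.86 and 2.27 after day 1, 2.41 and 2.32 after day 3 and 5.39 and 5.37 after day 6 (log2 fold change 1.86 ± 0.18, FDR 1.37e-11). No group overlapped another, and the size was close to the beta median of 1.95. PCDHGB1 (1.24 ± 0.23) and PCDHGB3 (1.01 ± 0.16) also rose. PCDHGB3 lost its call under DESeq2, under its size factors, with no filter on low counts and without 2 of the single libraries. PCDHGB7, the gamma gene with the highest level in DMSO cells, was at 4.82 and 5.14 CPM, against 5.68 and 5.99 CPM with DMSO (−0.26 ± 0.15, FDR 0.117). PCDHGA6 (0.68 ± 0.13, FDR 1.57e-05) and PCDHGB2 (0.95 ± 0.14, FDR 9.72e-08) stayed under 2-fold. The C-type genes were the lowest of the cluster, with means of 0.453 to 0.678 CPM with DMSO. PCDHGC3, which in the mouse promotes dendrite branching and binds the Wnt pathway protein AXIN1, had a log2 fold change of 0.91 ± 0.33 (FDR 0.0124), PCDHGC4, known in mice for its role in the survival of interneurons, 0.81 ± 0.44 (FDR 0.099), and PCDHGC5 0.49 ± 0.45 (FDR 0.333).

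Between 3 and 6 days 13 members rose and none fell, against 12.7% of all genes called higher and 8.41% called lower. They were 10 beta genes, PCDHA1 (log2 fold change 1.06), PCDHGA1 (1.11 ± 0.17) and PCDHGB1 (1.02 ± 0.23). PCDHA1 lost its call under DESeq2 (adjusted p 0.104), and with no filter on low counts PCDHB3, PCDHB4, PCDHB15 and PCDHGB1 fell just under 2-fold. The largest steps were those of PCDHB9 (1.63 ± 0.13), PCDHB13 (1.50 ± 0.08) and PCDHB12 (1.43 ± 0.08). PCDHGB3 showed no further difference (−0.01 ± 0.15, FDR 0.942), and PCDHAC2 had −0.15 ± 0.21 (FDR 0.552).

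**Figure D4:**
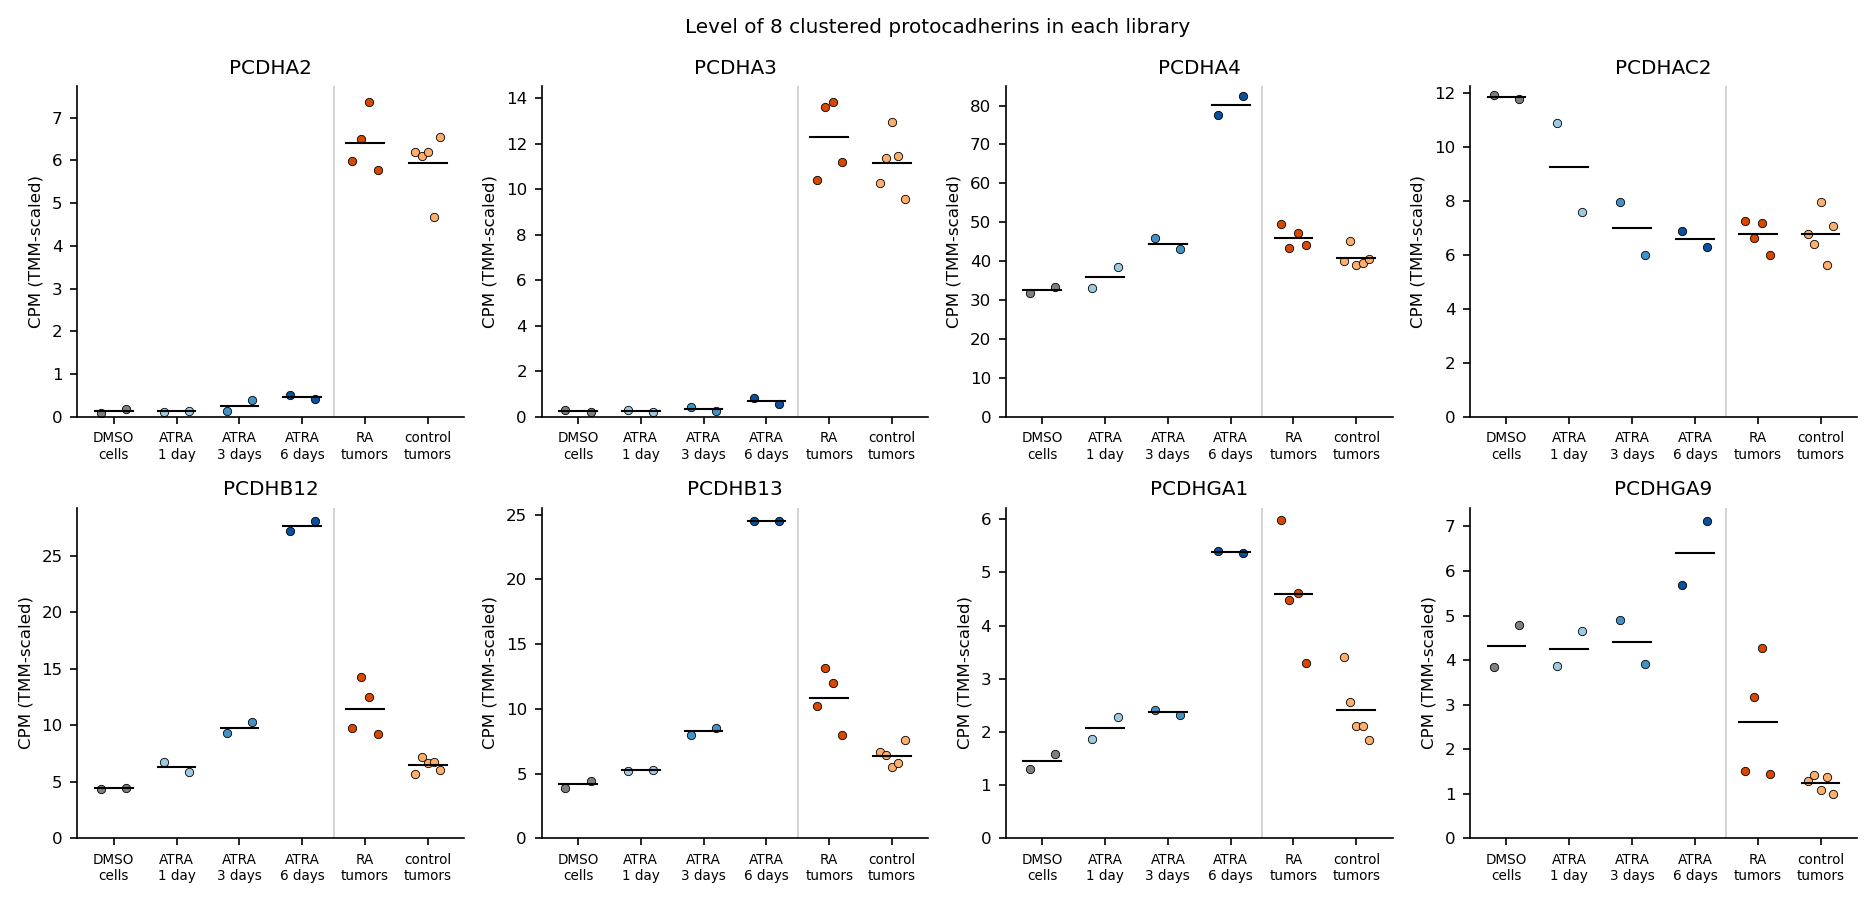
TMM-scaled CPM (vertical axes, from 0) of 8 members in each library, 1 point per library and a line at the group mean. PCDHA2 and PCDHA3 are near 0 in every library of cells and between 4.68 and 13.8 CPM in every tumor, PCDHAC2 is highest with DMSO, and PCDHB12 and PCDHB13 are highest at 6 days.

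In mice, the beta cluster again had the largest difference, between RA tumors and control tumors, but no member passed both thresholds. No member was called in edgeR's test (0 of 50 higher, 0 lower), where 0.246% of all genes were called higher and 0.0379% lower. DESeq2 called 1 (PCDHGA9), and 24 members had an unadjusted p under 0.05, a count not made over all genes. Without regard to fold, 9 members were higher with an FDR under 0.05, 8 of the 14 tested beta genes and PCDHGA1, against 1.4% of all genes. The median log2 fold change was 0.76 over the beta genes, all 14 of them above 0, against 0.49 over the gamma genes, 0.09 over the alpha genes and −0.01 over all genes. Every RA tumor exceeded every control tumor in 8 of 14 beta, 4 of 21 gamma and 1 of 15 alpha genes, against 3.86% of all genes, and no member showed the opposite, against 1.91% of all genes.

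The beta total was 94.1, 109, 113 and 73.1 CPM in RA tumors 1 to 4, against 54.95, 60.4, 54.8, 58.7 and 59.6 CPM in control tumors 1 to 5, a 1.69-fold difference with no overlap. The gamma total was 45.0, 43.7, 48.2 and 35.5 CPM in the RA tumors, against 32.2, 28.5, 33.0, 33.7 and 29.0 CPM in the control tumors, 1.38-fold and again without overlap. The alpha total was 213, 214, 230 and 213 CPM in the RA tumors, against 210, 198, 204, 178 and 199 CPM in the control tumors, 1.10-fold, with the lowest RA tumors close to control tumor 1. For all 3 totals RA tumor 4 was the lowest or tied for the lowest of the RA tumors.

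PCDHB11 had the lowest FDR of the members in tumors. It was at 16.5, 18.4, 18.3 and 15.0 CPM in RA tumors 1 to 4, against 11.0, 11.8, 10.8, 10.4 and 10.9 CPM in control tumors 1 to 5 (log2 fold change 0.63 ± 0.09, FDR 0.00647). PCDHB12 was at 9.73, 14.3, 12.4 and 9.23 CPM in the RA tumors, against 5.67, 7.22, 6.65, 6.74 and 6.02 CPM in the control tumors (0.82 ± 0.14, FDR 0.0114). PCDHB14 (0.76 ± 0.14, FDR 0.0134), PCDHB9 (0.92 ± 0.17, FDR 0.0154), PCDHB13 (0.76 ± 0.15, FDR 0.0205), PCDHB15 (0.73 ± 0.14, FDR 0.0205), PCDHB3 (0.87 ± 0.18, FDR 0.0261) and PCDHB16 (0.89 ± 0.20, FDR 0.0386) followed. For each of these except PCDHB3, the RA and control tumors did not overlap. PCDHB3 was at 9.726, 9.998, 11.04 and 5.571 CPM in the RA tumors, against 4.86, 4.55, 4.49, 5.91 and 4.80 CPM in the control tumors, and RA tumor 4 fell below control tumor 4. Without RA tumor 4, 8 members were called higher, among them PCDHB3 (1.06), PCDHB5 (1.37), PCDHB7 (1.17), PCDHB9 (1.07), PCDHB16 (1.04), PCDHGA1 (1.06) and PCDHGA9 (1.29). Without control tumor 1 the count was 1. Over all genes, 52 of 21098 were called higher with every tumor kept. That number also moved with the library left out, by the range given in the last section. The number over all genes under each of these omissions is not given here, so no matching share stands beside the counts of 8 and 1. Whether the move was particular to the members was not tested.

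PCDHGA1 was at 5.99, 4.49, 4.62 and 3.29 CPM in RA tumors 1 to 4, against 3.402, 2.565, 2.10, 2.12 and 1.85 CPM in control tumors 1 to 5 (0.92 ± 0.22, FDR 0.0461), with RA tumor 4 just below control tumor 1. PCDHGA9 had the largest gamma estimate (1.07 ± 0.31, FDR 0.109). It was at 1.51, 3.18, 4.27 and 1.44 CPM in the RA tumors, against 1.296, 1.422, 1.077, 1.38 and 0.995 CPM in the control tumors, so that 2 RA tumors were high and 2 close to the controls. Among the alpha genes none had an FDR under 0.05, PCDHA4 with 0.17 ± 0.07 (FDR 0.278), PCDHA10 with 0.18 ± 0.08 (FDR 0.295), PCDHAC1 with 0.19 ± 0.11 (FDR 0.423) and PCDHAC2 with −0.01 ± 0.13 (FDR 0.986). PCDHA14 had the lowest estimate (−1.44 ± 0.74, FDR 0.393). PCDHGC3 had 0.56 ± 0.38 (FDR 0.516) and PCDHGC5 0.18 ± 0.39 (FDR 0.876).

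The summed level of the 9 fibroblast markers was 62.3 to 76.0 CPM in RA tumors and 58.8 to 149 CPM in control tumors, with the top value in control tumor 4, which had 74.0 CPM of COL1A1. edgeR's test called none of the 7 fibroblast markers tested (median log2 fold change −0.79, with 1 at an unadjusted p under 0.05). The 8 leukocyte markers summed to 2.13 to 3.30 CPM in RA tumors and 2.51 to 4.33 CPM in control tumors, and PTPRC, which defines leukocytes, did not exceed 0.224 and 0.356 CPM. The 8 endothelium markers summed to 3.20 to 5.42 CPM in RA tumors and 2.66 to 7.94 CPM in control tumors, and the 6 Schwann cell markers to 6.99 to 8.84 CPM and 6.39 to 8.04 CPM. The ranges overlapped for each list, and their part in the protocadherin differences was not tested.

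**Figure D5:**
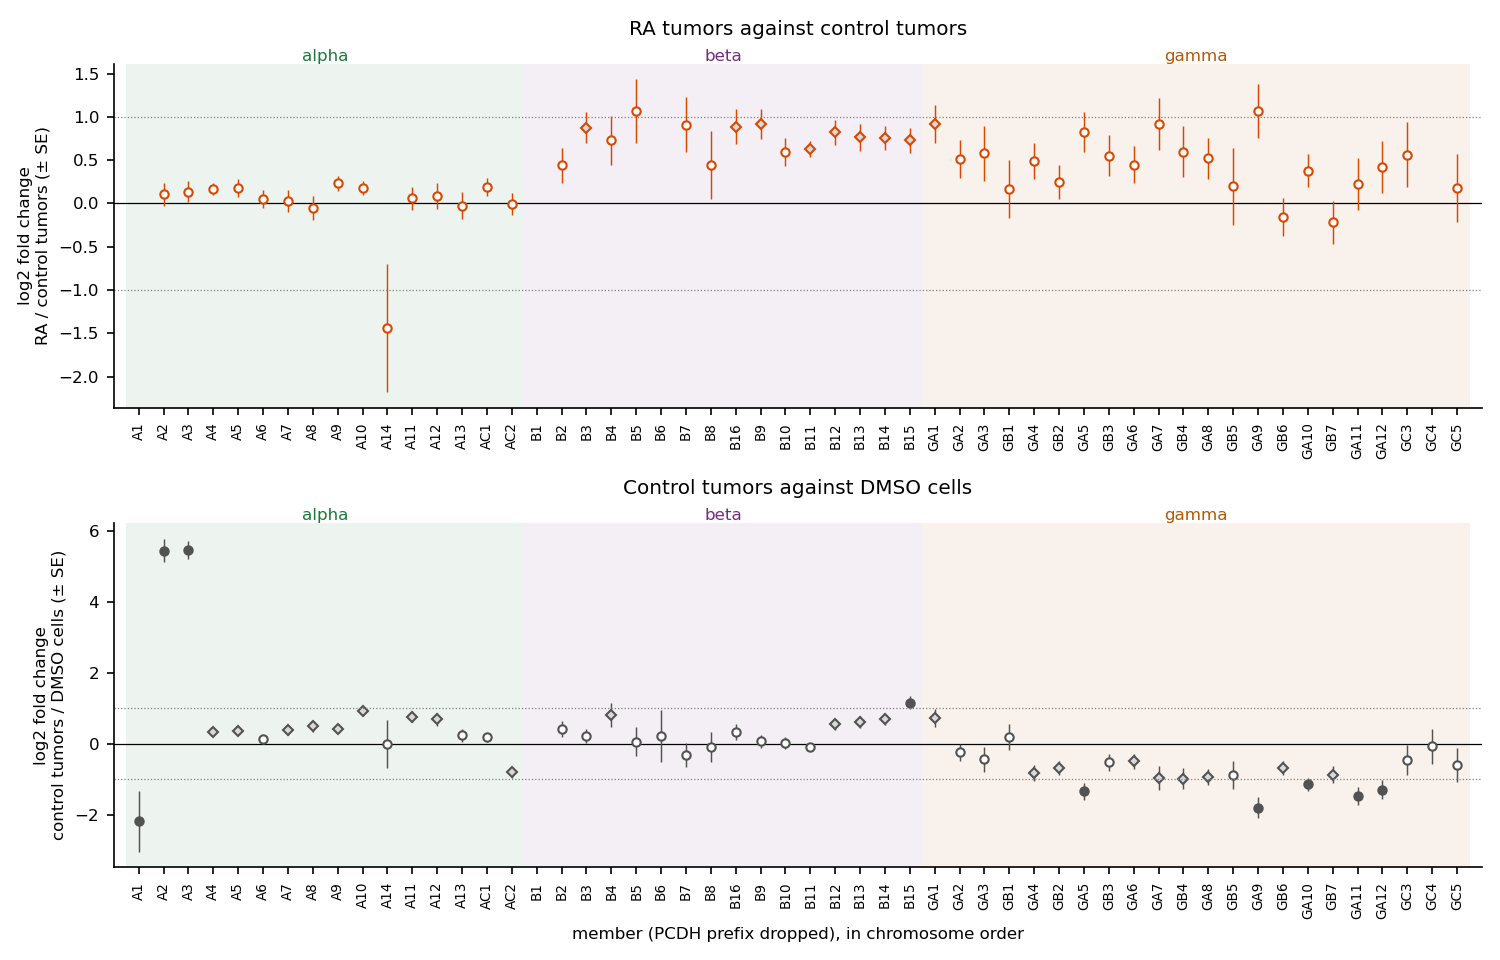
Log2 fold change (vertical axes, bars are ± SE) of each tested member in chromosome order (horizontal axis), for RA tumors against control tumors above and control tumors against DMSO cells below. Filled circles were called, grey diamonds had an FDR under 0.05 without passing 2-fold, and open circles had neither. All 14 beta genes lie above 0 in the upper plot, and PCDHA2 and PCDHA3 reach 5.45 and 5.47 in the lower one.

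The comparison of control tumors with DMSO cells asks how the family differed between the tumors and the same line in culture before any retinoic acid. Tumor and cell libraries were made with different kits, and only the implanted cells are described as luciferase-labeled, so growth in the mouse, the label and the library kit cannot be told apart. Whether reads from mouse RNA were removed is not given in the sources used here, and the part of such reads in the tumor values was not tested. Of 53 members 3 were higher and 6 lower, against 31.5% of all genes called higher and 11.4% called lower, and the median log2 fold change over all genes was 0.25. Relative to that shift, the beta median of 0.22 was close to the other genes, the alpha median of 0.38 slightly above and the gamma median of −0.75 below.

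The 2 largest differences were those of neighbouring alpha genes. PCDHA2 (from chr5:140794852) was at 6.21, 6.12, 6.21, 4.68 and 6.55 CPM in control tumors 1 to 5, against 0.0819 and 0.187 CPM in the DMSO libraries (43.7-fold, log2 fold change 5.45 ± 0.33, FDR 1.75e-11). PCDHA3 (from chr5:140801028) was at 10.3, 11.4, 13.0, 11.5 and 9.56 CPM in the control tumors, against 0.286 and 0.218 CPM with DMSO (44.3-fold, 5.47 ± 0.26, FDR 4.33e-13). In counts, PCDHA2 had 92 to 129 and PCDHA3 183 to 253 per control tumor, against 3 to 6 and 7 to 10 per DMSO library. RA tumors were at the same level, with 5.78 to 7.38 CPM of PCDHA2 and 10.4 to 13.8 CPM of PCDHA3, and no library of cells at any time exceeded 0.514 and 0.841 CPM. The genes on either side did not share this pattern. PCDHA1 was at 0 in 4 of the 5 control tumors and at 0.220 CPM in control tumor 2, against 0.246 and 0.251 CPM with DMSO (−2.19 ± 0.85, FDR 0.0269, a call lost under 6 of 7 single-library omissions), and PCDHA4 was at 40.8 ± 2.51 CPM, against 32.6 ± 1.26 CPM with DMSO (0.33 ± 0.08, FDR 0.00128). PCDHA2 held 3.00% and PCDHA3 5.65% of the alpha counts in control tumors, against 0.0959% and 0.1798% with DMSO. SOX10, which marks Schwann cells and was at 0 in both DMSO libraries, was at 0.890 to 2.21 CPM in control tumors, and the endothelial PECAM1 at 1.09 to 1.83 CPM, against 0. Their part in the levels of PCDHA2 and PCDHA3 was not tested.

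PCDHB15, the last beta gene, was also higher in control tumors, with 5.01 ± 0.53 CPM against 2.23 ± 0.19 CPM with DMSO (1.16 ± 0.18, FDR 1.14e-05). The genes that fell were gamma genes from the middle and end of the cluster and PCDHA1. PCDHGA9 was at 1.23 ± 0.19 CPM in control tumors, against 4.32 ± 0.66 CPM with DMSO (−1.80 ± 0.31, FDR 4.36e-05). PCDHGA11 (−1.47 ± 0.26), PCDHGA5 (−1.34 ± 0.24), PCDHGA12 (−1.29 ± 0.27) and PCDHGA10 (−1.15 ± 0.18) were also lower, the calls of PCDHGA5 and PCDHGA10 depending on DMSO library 1. The gamma total was 31.3 ± 2.39 CPM in control tumors, against 53.9 ± 0.77 CPM with DMSO (0.580-fold), and PCDHGA1, at 2.41 ± 0.61 and 1.45 ± 0.20 CPM, did not follow it (0.73 ± 0.25, FDR 0.0133). PCDHAC2 was at 6.78 ± 0.85 CPM in control tumors, against 11.9 ± 0.12 CPM with DMSO (−0.81 ± 0.15, FDR 6.88e-05, under 2-fold), a mean that lay within the range of the 3-day and 6-day ATRA cells.

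The effect of retinoic acid in tumors and that of 6 days in cells were compared by 1 interaction term, although drug isomer and dose differed between them and the time on drug of each tumor is not given in the sources used here. The tumor effect was lower than the cell effect for 18 of 53 members and higher for none, against 13.1% of all genes called lower and 7.78% called higher. The 18 were 10 beta and 8 alpha genes. With no filter on low counts PCDHA14 lost its call (FDR 0.0816), and PCDHA7, PCDHA8, PCDHB3 and PCDHB11 fell just under 2-fold. PCDHB3 did so under DESeq2 and its size factors as well (−0.98 in both). For PCDHB12 the effects differed by −1.82 ± 0.21 on the log2 scale (FDR 7.19e-07), for PCDHB13 by −1.79 ± 0.22 and for PCDHA4 by −1.13 ± 0.11 (FDR 1e-07). For PCDHGA1 the difference was −0.97 ± 0.33 (FDR 0.0229). PCDHAC2, at 0.84 ± 0.22 (FDR 0.00441), was the 1 member with an FDR under 0.05 and a tumor effect above the cell effect. The alpha median was 0.09 in tumors and 1.08 in cells at 6 days, and the beta median 0.76 and 1.95.

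Among factors of promoter choice and chromatin, most had a lower level at 6 days of ATRA and the others a higher one. CTCF was at 110 ± 1.48 CPM with DMSO, 105 ± 1.08 at 1 day, 92.5 ± 2.19 at 3 days and 60.1 ± 0.83 at 6 days (log2 fold change at 6 days −0.90 ± 0.03, FDR 6.32e-24, under 2-fold). The cohesin subunit gene RAD21 had −0.79 ± 0.03 at 6 days. In RA tumors against control tumors, CTCF had −0.14 ± 0.07 (FDR 0.364) and RAD21 −0.06 ± 0.07 (FDR 0.739). REST, which represses neuronal genes, was at 2.57 ± 0.055 CPM at 6 days, against 23.1 ± 1.07 CPM with DMSO (−3.20 ± 0.10, FDR 2.07e-26), at 2.22 ± 0.39 CPM in RA tumors, against 3.66 ± 1.41 CPM in control tumors (−0.72 ± 0.25, FDR 0.179), and fell in control tumors against DMSO cells (−2.66 ± 0.20). Of 21 such factors 4 fell and none rose at 6 days, namely REST, the maintenance DNA methyltransferase gene DNMT1 (−1.54 ± 0.03), the cohesin subunit gene STAG1 (−1.17 ± 0.05) and EZH2 (−1.11 ± 0.04), which methylates histone H3. The shares over all genes were 12.3% lower and 18.8% higher. DNMT3A (0.55 ± 0.02, FDR 3.77e-21) and TET2 (0.60 ± 0.03, FDR 1.12e-19), whose products add and oxidise DNA methylation, were higher at 6 days in edgeR's test without passing 2-fold. The median log2 fold change of the list was −0.01 at 1 day, −0.13 at 3 days, −0.79 at 6 days and −0.08 in RA tumors against control tumors, and edgeR's test called none of them at 1 day, at 3 days or in tumors, with 5, 17 and 5 at an unadjusted p under 0.05.

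The counts of the following lists at 6 days stand against 18.8% of all genes called higher and 12.3% called lower. Of 10 protocadherins outside the clusters that were tested, 5 rose and 2 fell, and the median log2 fold change was 0.88. PCDH1 (2.83 ± 0.11), PCDH7 (2.69 ± 0.14) and PCDH8 (2.28 ± 0.09) rose and PCDH18 fell (−2.08 ± 0.13). In control tumors against DMSO cells 2 of 11 were higher and 6 lower, against 31.5% and 11.4% of all genes. PCDH12 (6.11 ± 0.51) was among the higher and PCDH18 (−3.07 ± 0.21) among the lower. Of 14 classical cadherin genes 3 rose and 3 fell at 6 days, led by CDH19 (5.61 ± 0.78), CDH12 (4.87 ± 0.16) and CDH15 (−4.73 ± 0.29). Of 23 genes that signal from or process protocadherins, 3 rose: RET (5.00 ± 0.13), whose product binds alpha and gamma protocadherins in the mouse, PTK2B (1.20 ± 0.13) and CYFIP2 (1.00 ± 0.03), part of the actin-regulating WAVE complex. Of 16 genes that flank the clusters 2 rose and 1 fell, FCHSD1 (1.62 ± 0.11), SLC25A2 (1.16 ± 0.47) and DIAPH1 (−1.41 ± 0.03), with a median of 0.07. Of 5 pseudogenes within the clusters other than PCDHA14, PCDHB19P (1.91 ± 0.22), PCDHB17P (1.70 ± 0.50) and PCDHB18P (1.43 ± 0.20) rose at 6 days, and PCDHGB9P had −0.43 ± 0.29 (FDR 0.183). In RA tumors against control tumors edgeR's test called none of these genes, with 4 of the nonclustered protocadherins, 4 of the cadherins, 5 of the signaling genes, 0 of the flanking genes and 2 of the pseudogenes at an unadjusted p under 0.05.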

How the data were processed

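RNA-seq gene tables of CHP-134 cells (8 libraries) and xenograft tumors (9 libraries) were used. Per the study's methods, adapters were removed by Trim Galore 0.4.4 and alignment to hg38 used STAR 2.7.10a. The authors deposited RSEM 1.3.3 expected counts per gene, which need not be whole. The annotation release, the strand setting and any removal of mouse reads are not given in the sources used here. All columns matched a sample (0 left unmatched), and the 92 spike-in entries were left out. Cells were prepared with an Illumina stranded total RNA kit and tumors with a KAPA kit, both after ribosomal RNA removal.

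Expected counts were rounded and fitted with edgeR 4.0.16 in R 4.3.3 (TMM, filterByExpr with a minimum count of 10, robust quasi-likelihood test, Benjamini-Hochberg adjustment over all genes tested), separately for cells, for tumors and, across them, for all 17 libraries, in 7 comparisons. The SE is the fold change divided by the root of the test's F. The procedure was tested on simulated data. Alternatives were DESeq2 1.42.0, its size factors, no filter, 1 model of all libraries, a replicate block and the omission of each library. Named members are those called in any comparison, the C-type members and the 3 highest of each cluster, with at most 4 called genes from each other list. The members and lists were chosen with earlier results of these data known. CTCF, RAD21 and REST were always named. Promoter letters came from RefSeq windows (GRCh38.p14) and positions from GENCODE 44.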

Additional observations from a re-analysis of the deposited data

Results flagged for a closer look

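In the tumor groups, 9 of 86 sets of 4 or 5 values held a library far from the rest of its group by Dixon's test, where chance alone gives about 1 in 20. RA tumor 3 had an alpha total of 229.7 CPM, above the 213.1 to 213.8 CPM of the other RA tumors, and 2.175 CPM of PCDHGA11, above their 1.15 to 1.32 CPM. RA tumor 4 had 3.347 CPM of PCDHB9, below the 5.099 to 5.399 CPM of the other RA tumors. Among the control tumors, tumor 1 had 7.729 CPM of PCDHA8, above 5.378 to 6.053 CPM in the others, tumor 2 had 0.2195 CPM of PCDHA1, which was at 0 in the others, and 45.18 CPM of PCDHA4, above 38.91 to 40.64 CPM. Control tumor 4 had 4.684 CPM of PCDHA2, below 6.115 to 6.546 CPM in the others, and 5.914 CPM of PCDHB3, above 4.49 to 4.864 CPM. Control tumor 5 had 2.671 CPM of PCDHGB1, above 0.7471 to 1.103 CPM in the others.

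The retinoic acid effect in tumors was lower than the 6-day effect in cells for 18 members by edgeR's interaction term. Among the alpha genes the log2 difference of the effects was −1.70 for PCDHA2, −1.34 for PCDHA3, −1.13 for PCDHA4, −1.05 for PCDHA7, −1.07 for PCDHA8, −1.17 for PCDHA11, −1.14 for PCDHA12 and −2.93 for the pseudogene PCDHA14. The call of PCDHA14 was lost with no filter on low counts. Among the beta genes it was −1.02 for PCDHB3, −1.29 for PCDHB4, −1.34 for PCDHB9, −1.38 for PCDHB10, −1.08 for PCDHB11, −1.82 for PCDHB12, −1.79 for PCDHB13, −1.36 for PCDHB14, −1.35 for PCDHB15 and −1.17 for PCDHB16.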

How the results depend on the processing

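No member's log2 fold change changed sign among called values under any alternative tried, and of the values of single members under alternatives 1097 stayed on their side of the threshold, 97 lost a call and 70 gained one. At 3 days DESeq2 called 4 and the model of all libraries 2 members. In RA tumors, 2 members were called with no filter, 1 by DESeq2 and 1 in the model of all libraries. At 6 days DESeq2 lost the calls of PCDHA2, PCDHA3, PCDHB6 and PCDHGB3, and the fit with no filter those of PCDHA7, PCDHB6 and PCDHGB3. The model of all libraries lost PCDHA14 and PCDHB6 at 6 days and gained PCDHA5 and PCDHA8. Leaving out 1 library, members called ranged from 0 to 1 at 1 day, 4 to 7 at 3 days, 26 to 30 at 6 days and 0 to 8 in RA tumors. Over all genes, DESeq2 called 228 higher and 80 lower at 1 day, and the model of all libraries 187 and 50. In RA tumors, 94 genes were called higher and 30 lower with no filter, 110 and 47 in the model of all libraries, and DESeq2 called 17 lower. Omissions gave 24 to 131 higher and 0 to 29 lower. Replicate numbers did not pair the libraries (correlations of deviations −0.025 to 0.0115 in cells and −0.334 to 0.108 in tumors), and with a replicate block 11 genes were called higher and 1 lower in RA tumors. Scaled by total counts, the alpha total was 1.03-fold at 1 day, 1.25-fold at 3 days and 1.61-fold in control tumors against DMSO cells, the beta total 1.25-fold at 1 day, 1.87-fold at 3 days, 2.25-fold at 6 against 3 days and 1.46-fold in control tumors, and the gamma total 0.663-fold in control tumors. The causes were not tested. Members with few counts (PCDHA1, PCDHA2, PCDHB6, PCDHGC4) are limited by depth, and the calls at 2 libraries per group rest on the spread of those libraries.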
